A study of Mus musculus with 9 samples.

Results

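The class I pathway of antigen processing was followed through 10 genes: the class I heavy chains H2-K1 and H2-D1, their light chain B2m, the peptide transporter genes Tap1 and Tap2, the loading factor Tapbp, the transcriptional activator Nlrc5, and the immunoproteasome subunits Psmb8, Psmb9 and Psmb10. They were found by looking up these mouse symbols for the Ensembl identifiers of the count table. All 10 were present among the 53801 genes listed, and all 10 were among the 12538 protein-coding genes with enough counts to be tested.

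CD11b+ cells had been sorted out of the brain hemisphere that carried a GL261 glioma, a mouse line expressing luciferase and tdTomato, in C57BL/6J mice. The 9 poly-A RNA libraries fall into 4 groups: 2 of control mice given the vehicle (CTR), 2 of mice given the arginase inhibitor OAT-1746, 2 of mice given an antibody to PD-1 (anti-PD-1) and 3 of mice given both agents (COMB). Such a sort is mixed. By the paper's account, NK cells and part of the dendritic cells come along with granulocytes, macrophages, monocytes and microglia. Between 13048075 and 18796479 read pairs were counted on genes in each library, and the 10 genes together held from 172113 to 302488 of them.

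Class I molecules show peptides from inside the cell to CD8 T cells and are also read by inhibitory receptors of NK cells. The proteasome cuts the peptides, the TAP transporter carries them into the endoplasmic reticulum, and tapasin, the product of Tapbp, holds the transporter beside empty class I molecules. Interferon gamma is known to raise most of these genes, in part through Nlrc5, and to replace the constitutive catalytic subunits of the proteasome with the immunoproteasome subunits, while microglia at rest are known for low class I expression.

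The upstream sequences of H2-K1 and B2m are shown because the heavy and light chains are known to share control elements there. RefSeq promoter windows of GRCm38.p6 were found for 8 of the 10 genes, and Tap2 and Nlrc5 were named only. Capitals mark matches on either strand to the NF-κB consensus, the letters GAANNGAAA, the CRE-like letters TGACG and the Y box core ATTGG. GAANNGAAA was taken as the core of the interferon-stimulated response element. The H2-K1 stretch lies on the minus strand at chr17:34000348-34000597, upstream of the annotated gene, and the B2m stretch on the plus strand at chr2:122147437-122147685, also upstream of it.
H2-K1: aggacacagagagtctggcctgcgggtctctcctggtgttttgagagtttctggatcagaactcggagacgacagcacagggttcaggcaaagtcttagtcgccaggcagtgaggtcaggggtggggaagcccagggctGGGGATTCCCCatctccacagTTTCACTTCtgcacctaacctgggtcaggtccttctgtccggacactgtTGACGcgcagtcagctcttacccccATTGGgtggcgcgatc
B2m: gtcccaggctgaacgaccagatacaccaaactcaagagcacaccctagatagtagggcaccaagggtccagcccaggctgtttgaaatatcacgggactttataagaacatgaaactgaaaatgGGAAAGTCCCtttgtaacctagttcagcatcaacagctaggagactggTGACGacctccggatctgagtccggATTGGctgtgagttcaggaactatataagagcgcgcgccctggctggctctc

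The NF-κB consensus was matched in the 250 bases before the start of 3 of the 8 genes (H2-K1, H2-D1 and B2m), against 7.25% of all 32851 promoter windows of that length. GAANNGAAA was matched in 2 of the 8 (H2-K1 and H2-D1), against 6.31% of windows. TGACG was matched in 5 of the 8 against 17.8%, and ATTGG in 6 of the 8 against 33.8%. Psmb8 and Psmb10 held none of the 4 motifs in this window. A match is a description of letters, not a bound site. The heavy chain genes carry nearly the same stretch from the NF-κB consensus to the interferon element. That of H2-K1 lies at chr17:34000428-34000457 on the minus strand and that of H2-D1 at chr17:35262924-35262953 on the plus strand, with capitals for these motifs.
H2-K1: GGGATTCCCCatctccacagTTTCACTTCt
H2-D1: GGGATTCCCCatctcctcagTTTCACTTCt
Counted from 1 at the 5′ end with the base of H2-K1 first, the 30 bases differ by A17T. The H2-D1 stretch lies before the RefSeq start at 35263094 but inside the annotated gene, which begins at 35262730. For Tapbp, Psmb8, Psmb9 and Psmb10, too, the RefSeq start that set the window lies inside the annotated gene. For Tap1 and B2m it lies inside by only a few bases. Psmb9 and Tap1 lie head to head, with RefSeq starts 226 bases apart on opposite strands.

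1 library stood apart before any comparison was made. Levels are given as CPM, the counts of a gene scaled to the library's total after TMM normalization. On log2 CPM of the tested genes, the correlation of OAT-1746 replicate 2 with each of the other libraries was between 0.911 and 0.956 (Pearson's r), against 0.960 to 0.989 for pairs among the rest. The points are genes, which are not independent, and no p-value is given. The main results that rest on the OAT-1746 group are therefore given with and without this library. Within COMB, replicate 1 was the lowest library in all 10 genes.

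Class I light chain mRNA was the most abundant of the 10. Per kilobase of exon and over all 9 libraries, B2m stood at 6853 CPM, H2-D1 at 1357, H2-K1 at 1166 and Tapbp at 240. Psmb10 and Psmb8 were nearly level at 156 and 155 CPM per kilobase, followed by Tap1 at 120, Tap2 at 74.0 and Psmb9 at 52.2. Nlrc5 was lowest at 8.06 CPM per kilobase. The middle of this order depends on the length used. Exon and coding lengths were 3381 and 828 bases for Psmb8, 1705 and 819 for Psmb10, and 3628 and 1442 for Tapbp. Per kilobase of coding sequence Psmb8 would stand above both Psmb10 and Tapbp, and Psmb9 above Tap2, with B2m still first and Nlrc5 last.

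H2-K1 (ENSMUSG00000061232, chr17:33996017-34000347, minus strand) encodes the K heavy chain that presents peptides. Its TMM-normalised level was 3838 and 3649 CPM in CTR, 2659 and 2073 in OAT-1746, 2913 and 3765 in anti-PD-1, and 3031, 4494 and 4396 in COMB. Both OAT-1746 libraries lay below all other libraries, while the other groups overlapped. H2-D1 (ENSMUSG00000073411, chr17:35262730-35267499, plus strand), the D heavy chain, stood at 3977 and 3466 CPM in CTR, 2868 and 2130 in OAT-1746, 3365 and 3982 in anti-PD-1, and 3126, 4337 and 4251 in COMB. Here too the OAT-1746 libraries were the lowest. B2m (ENSMUSG00000060802, chr2:122147686-122153083, plus strand), which pairs with every class I heavy chain, had 6106 and 6934 CPM in CTR, 6323 and 4291 in OAT-1746, 5410 and 6034 in anti-PD-1, and 4882, 6692 and 6370 in COMB. For B2m both anti-PD-1 libraries lay below both CTR libraries, beside 2122 of all 12538 tested genes. The other pairs of groups overlapped, with OAT-1746 replicate 2 the lowest library and OAT-1746 replicate 1 within the range of CTR.

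The immunoproteasome subunits had the widest range between libraries, relative to their level, among the 10 genes. In Psmb8, Psmb9 and Psmb10 both anti-PD-1 libraries lay above both CTR libraries, beside 2588 of all 12538 tested genes. Psmb8 (ENSMUSG00000024338, chr17:34197721-34201454, plus strand), which takes the place of Psmb5, was at 523 and 492 CPM in CTR, 372 and 176 in OAT-1746, 565 and 553 in anti-PD-1, and 420, 833 and 782 in COMB. Psmb10 (ENSMUSG00000031897, chr8:105935735-105938444, minus strand), which takes the place of Psmb7, was at 249 and 260 CPM in CTR, 204 and 87.7 in OAT-1746, 300 and 293 in anti-PD-1, and 216, 417 and 366 in COMB. In both genes every COMB library lay above both OAT-1746 libraries, COMB replicate 1 by the least. Psmb9 (ENSMUSG00000096727, chr17:34181987-34187764, minus strand), which takes the place of Psmb6, had 190 and 181 CPM in CTR, 153 and 77.3 in OAT-1746, 197 and 212 in anti-PD-1, and 150, 295 and 264 in COMB, so that COMB replicate 1 and OAT-1746 replicate 1 were level.

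Transport and loading genes were lowest in OAT-1746 replicate 2. Tap1 (ENSMUSG00000037321, chr17:34187553-34197225, plus strand), a chain of the peptide transporter, had 635 and 646 CPM in CTR, 578 and 273 in OAT-1746, 622 and 780 in anti-PD-1, and 530, 969 and 897 in COMB. Tap2 (ENSMUSG00000024339, chr17:34203527-34216321, plus strand), the other chain, had 292 and 262 CPM in CTR, 238 and 152 in OAT-1746, 268 and 347 in anti-PD-1, and 225, 357 and 376 in COMB. In both genes COMB replicate 1 lay below OAT-1746 replicate 1, so COMB and OAT-1746 overlapped. Tapbp (ENSMUSG00000024308, chr17:33915899-33929292, plus strand), which encodes tapasin, had 982 and 903 CPM in CTR, 865 and 539 in OAT-1746, 860 and 971 in anti-PD-1, and 745, 969 and 998 in COMB, and its CTR, anti-PD-1 and COMB libraries overlapped.

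Nlrc5 (ENSMUSG00000074151, chr8:94434356-94527272, plus strand), the class I transactivator, did not follow the other 9 genes. It had 75.6 and 64.3 CPM in CTR, 75.5 and 49.2 in OAT-1746, 68.0 and 109 in anti-PD-1, and 50.5, 53.8 and 70.1 in COMB. Its highest library was anti-PD-1 replicate 2, and no group of Nlrc5 stood clear of the others.

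**Figure D1:**
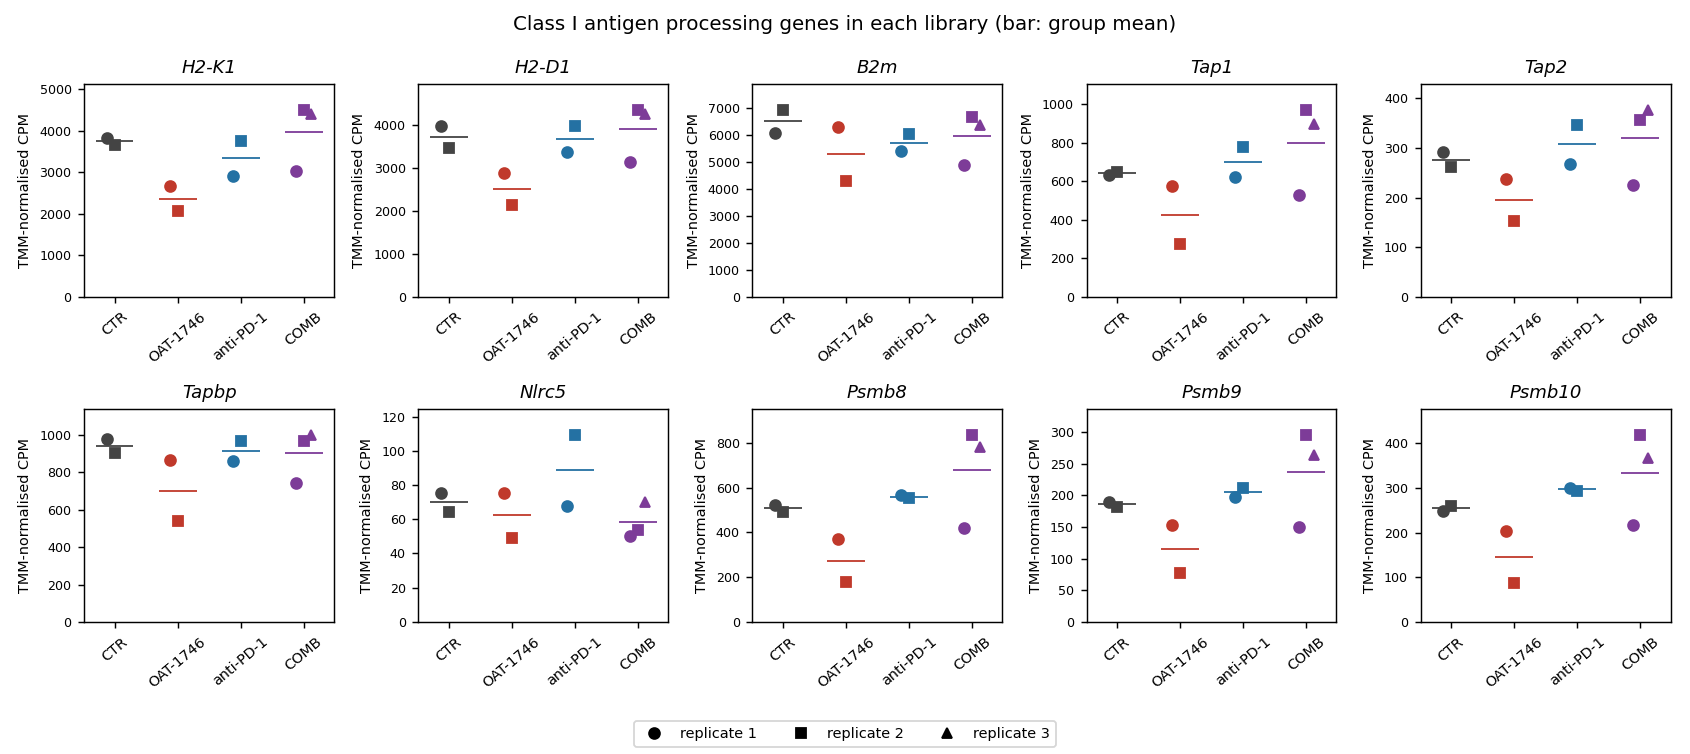
TMM-normalised CPM of the 10 genes in each of the 9 libraries, by group; point shapes give the replicate and bars the group mean. The OAT-1746 libraries of H2-K1, at 2659 and 2073 CPM, are the lowest of all, and Nlrc5 shows no such order.

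All 10 genes had a lower mean in OAT-1746 than in CTR, and none was called. The question here is what the arginase inhibitor alone did. The log2 fold changes ranged from -0.89 (Psmb8) to -0.17 (Nlrc5) with a median of -0.58, against a median of 0.01 over all tested genes. By edgeR's quasi-likelihood test at an adjusted p under 0.05, 0 of the 10 were called, beside 0% of all tested genes (0 of 12538). limma voom also called 0 of the 10, and DESeq2's Wald test called 0, with H2-K1 at an adjusted p of 0.0506. With DESeq2's independent filtering tuned to the 0.05 threshold instead of its default, an alternative chosen after seeing the data, H2-K1 passed at a DESeq2 adjusted p of 0.0492, 1 of 10 genes. DESeq2 called 7.37% of all tested genes as lower.

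The heavy chains and Psmb8 had the smallest p. At an unadjusted p under 0.05 edgeR gave 3 of 10 as lower, beside 16.2% of all tested genes. They were H2-K1 (log2 fold change -0.66, standard error 0.25, edgeR adjusted p = 0.111), H2-D1 (-0.57, standard error 0.23, edgeR adjusted p = 0.132) and Psmb8 (-0.89, standard error 0.38, edgeR adjusted p = 0.145). In 8 of the 10 genes the CTR libraries were both above the OAT-1746 libraries, beside 32.1% of all tested genes. B2m and Nlrc5 were the genes that overlapped. In bulk RNA, fewer cells of a type and less RNA per cell cannot be told apart.

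Much of this difference rested on OAT-1746 replicate 2. Without it, the lone OAT-1746 library being assumed to vary like the other groups, the median of the 10 genes was -0.24 instead of -0.58. H2-K1 was then at -0.48, H2-D1 at -0.36, Psmb8 at -0.44, Tap1 at -0.14 and B2m at -0.03. Nlrc5 was at 0.12, and 0 of the 10 were called. Without OAT-1746 replicate 1 instead, edgeR called 5 of the 10, namely Tap1, Tapbp, Psmb8, Psmb9 and Psmb10, and 3617 of all tested genes. Psmb10 then had a log2 fold change of -1.54 (edgeR adjusted p = 0.0125). Without COMB replicate 1 edgeR called 278 of all tested genes and 0 of the 10.

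Neither the antibody alone nor the combination moved the 10 genes past the threshold against CTR. The comparisons share the CTR libraries. For anti-PD-1 against CTR, edgeR called 0 of 10 at an adjusted p under 0.05, beside 0% of all tested genes, with 0 of 10 at an unadjusted p under 0.05 and 0 by DESeq2 or limma voom. The log2 fold changes ran from -0.19 (B2m) to 0.34 (Nlrc5), with a median of 0.13 against 0.02 over all tested genes. Without anti-PD-1 replicate 2 that median was -0.05. For COMB against CTR, edgeR called 0 of 10, beside 0% of all tested genes, and gave 0 at an unadjusted p under 0.05, beside 825. DESeq2 and limma voom called 0 of 10, beside 35 and 2 of all tested genes. Here the log2 fold changes ran from -0.27 (Nlrc5) to 0.42 (Psmb8, standard error 0.35), with a median of 0.15 against 0 over all tested genes. That median was 0.30 without COMB replicate 1, 0.053 without COMB replicate 2, 0.046 without COMB replicate 3, 0.25 without CTR replicate 1 and 0.087 without CTR replicate 2.

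In the main edgeR fit, Psmb8 was the only one of the 10 genes called in any comparison, between COMB and OAT-1746, which asks what the antibody added to the inhibitor. Its log2 fold change was 1.31 (standard error 0.36, edgeR adjusted p = 0.0430), and every one of the 3 COMB libraries lay above both OAT-1746 libraries. That is 1 of 10 genes, beside 15.8% of all tested genes called in either direction and 6.84% called as higher. The median of the 10 genes was 0.73, and 0.47 without OAT-1746 replicate 2, against 0 over all tested genes. At an unadjusted p under 0.05, 7 of 10 were higher, beside 18.3% of all tested genes.

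The other 6 of these were Psmb10 (log2 fold change 1.19, edgeR adjusted p = 0.0555), Psmb9 (1.04, edgeR adjusted p = 0.0623), Tap1 (0.91, edgeR adjusted p = 0.0925), H2-K1 (0.75, edgeR adjusted p = 0.0548), Tap2 (0.71, edgeR adjusted p = 0.0934) and H2-D1 (0.64, edgeR adjusted p = 0.0695). DESeq2 called the 7 genes, beside 13.2% of all tested genes called as higher, and limma voom also called 7, beside 2808 of all 12538 tested genes called in either direction. All COMB libraries lay above both OAT-1746 libraries in 4 of 10 genes (H2-K1, H2-D1, Psmb8 and Psmb10), beside 25.0% of all tested genes. B2m (0.17), Tapbp (0.36) and Nlrc5 (-0.10) had an unadjusted p above 0.05. In the fit that left out OAT-1746 replicate 2, Psmb10 was at 0.72, Psmb9 at 0.64, H2-K1 at 0.59, Tap1 at 0.48, H2-D1 at 0.46, Tap2 at 0.44, Tapbp at 0.076, B2m at -0.068 and Nlrc5 at -0.36.

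The call of Psmb8 was lost in 7 of the 9 fits that left out 1 library. Without OAT-1746 replicate 2 its log2 fold change was 0.88 (edgeR adjusted p = 0.213) and 0 of the 10 genes were called. The call was also lost without either CTR replicate or either anti-PD-1 replicate. Those libraries enter the comparison only through the shared spread, the normalization and the set of tested genes. It was lost as well without COMB replicate 2 (edgeR adjusted p = 0.140) or COMB replicate 3 (edgeR adjusted p = 0.139). The fold changes stayed closer to 1.31 in these fits, at 1.32 without CTR replicate 1, 1.31 without CTR replicate 2 or either anti-PD-1 replicate, 1.13 without COMB replicate 2 and 1.18 without COMB replicate 3. Without OAT-1746 replicate 1 edgeR called 8 of the 10, with Psmb8 at 1.95 (edgeR adjusted p = 0.00548), and without COMB replicate 1 it called 7. Of all tested genes edgeR called 1979 with every library, 27 without OAT-1746 replicate 2, 4033 without OAT-1746 replicate 1, 734 and 808 without CTR replicate 1 and 2, 861 and 927 without anti-PD-1 replicate 1 and 2, and 2923, 14 and 5 without COMB replicate 1, 2 and 3.

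**Figure D2:**
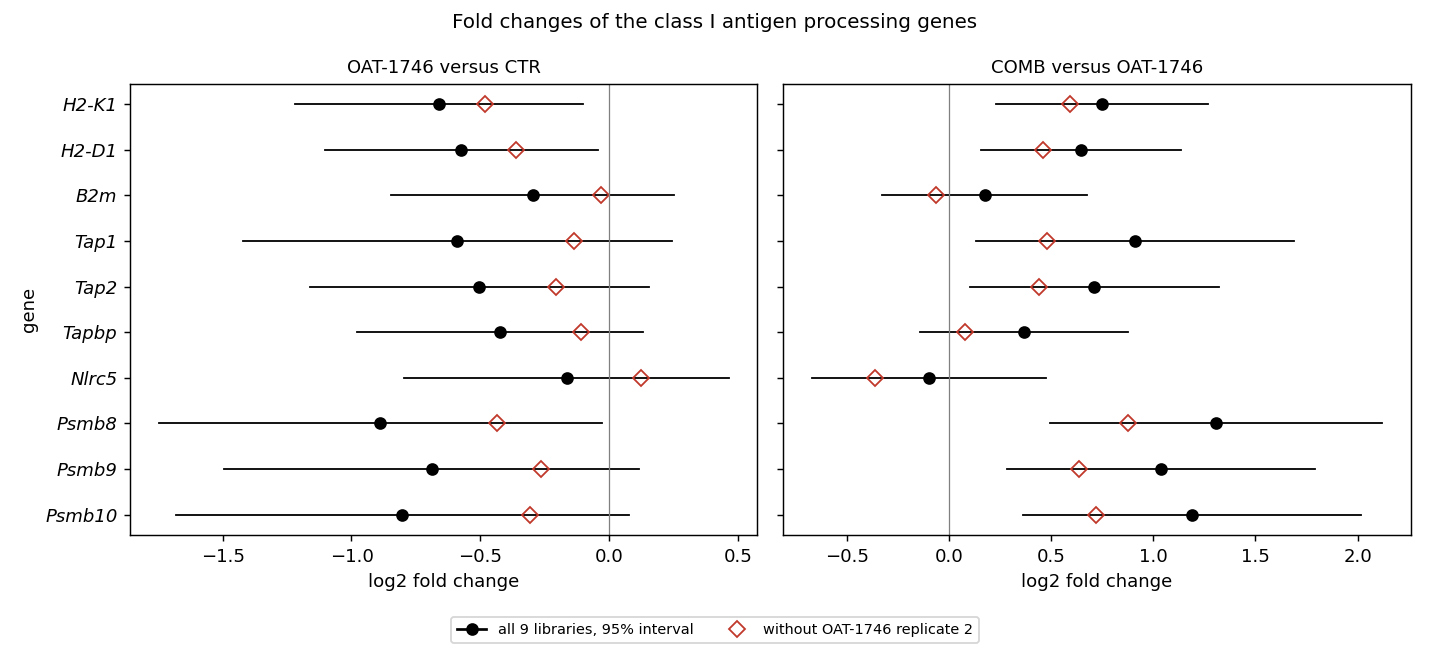
Log2 fold change of the 10 genes between OAT-1746 and CTR and between COMB and OAT-1746; filled points and lines are the fit of all 9 libraries with its 95% interval, open points the fit without OAT-1746 replicate 2. Psmb8 is at 1.31 between COMB and OAT-1746 and at 0.88 without that library.

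The remaining contrasts held no call among the 10 genes. Between COMB and anti-PD-1, which gives the effect of the inhibitor in mice with the antibody, edgeR called 0 of 10 (0% of all tested genes), with 0 by DESeq2 and limma voom. Nlrc5 alone had an unadjusted p under 0.05 (log2 fold change -0.61, edgeR adjusted p = 0.665), 1 of 10 lower beside 5.26% of all tested genes. The interaction is the effect of OAT-1746 with the antibody minus its effect without it. edgeR called 0 of 10 there, beside 0.359% of all tested genes, with 0 by DESeq2 and limma voom. H2-K1 (0.91, standard error 0.34, edgeR adjusted p = 0.142) and Psmb8 (1.17, standard error 0.52, edgeR adjusted p = 0.190) were 2 of 10 positive at an unadjusted p under 0.05, beside 11.8%. Without OAT-1746 replicate 2 they were at 0.76 and 0.74. The average antibody effect gave 0 of 10 calls by edgeR, DESeq2 and limma voom, beside 0.00798% of all tested genes called by edgeR. At an unadjusted p under 0.05 it gave Psmb8 (0.72), Psmb10 (0.71) and Psmb9 (0.59), 3 of 10 higher beside 9.39%, and these were at 0.51, 0.47 and 0.39 without OAT-1746 replicate 2. Without OAT-1746 replicate 1, edgeR called 4 of 10 in the interaction and 4 of 10 in the average antibody effect, in both Tap1, Psmb8, Psmb9 and Psmb10.

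The backgrounds of these contrasts also depended on single libraries. In the interaction, edgeR called 45 genes in all, 2734 without OAT-1746 replicate 1, 26 without OAT-1746 replicate 2, 424 without COMB replicate 1, and 0 without CTR replicate 1, CTR replicate 2, anti-PD-1 replicate 2, COMB replicate 2 or COMB replicate 3. In the average antibody effect it called 1 gene, 1478 without OAT-1746 replicate 1, and 0 without either CTR replicate, anti-PD-1 replicate 1 or any 1 COMB replicate. Between COMB and anti-PD-1 it called 52 without OAT-1746 replicate 1, 41 without OAT-1746 replicate 2 and 5 without anti-PD-1 replicate 1.

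The constitutive subunits that the immunoproteasome replaces were also higher in COMB than in OAT-1746. Psmb5 was at 36.8 and 39.8 CPM in CTR, 25.0 and 13.4 in OAT-1746, 41.3 and 39.6 in anti-PD-1, and 30.8, 54.9 and 46.4 in COMB, so that every COMB library lay above both OAT-1746 libraries. edgeR called all 3 of Psmb5 (log2 fold change 1.20, edgeR adjusted p = 0.0354), Psmb6 (0.95, edgeR adjusted p = 0.0486) and Psmb7 (0.95, edgeR adjusted p = 0.0385), beside 6.84% of all tested genes called as higher. In OAT-1746 against CTR it called 0 of the 3, with 2 at an unadjusted p under 0.05 and 2 by DESeq2, beside 16.2% and 7.37% of all tested genes as lower. The calls of all 3 were lost without either CTR replicate, either anti-PD-1 replicate, OAT-1746 replicate 2, COMB replicate 2 or COMB replicate 3. The fold changes were nearly the same without a CTR or anti-PD-1 replicate, with Psmb5 at 1.20 to 1.21 and Psmb6 and Psmb7 at 0.96 without CTR replicate 2. Psmb5 was at 1.01 without COMB replicate 2 and 1.15 without COMB replicate 3. Without OAT-1746 replicate 2, Psmb5 was at 0.83, Psmb6 at 0.58 and Psmb7 at 0.595.

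Other proteasome genes had the same signs. Of 15, which are 14 subunits of the 20S core and PA28 and 1 assembly factor, all 15 had a negative fold change in OAT-1746 against CTR, with 0 called by edgeR, 2 called by DESeq2 and 11 at an unadjusted p under 0.05, beside 7.37% and 16.2% of all tested genes as lower by the last 2. Psmb4 (-0.85, edgeR adjusted p = 0.0902), Psmb2 (-0.82, edgeR adjusted p = 0.0952) and Psme3 (edgeR adjusted p = 0.0959) had the smallest p. All 15 stayed negative without OAT-1746 replicate 2, with Psmb4 at -0.53, Psmb2 at -0.46 and a median of -0.34 instead of -0.75. Between COMB and OAT-1746 edgeR called 10 of the 15 as higher, beside 6.84% of all tested genes, and 0 without OAT-1746 replicate 2, COMB replicate 2 or COMB replicate 3, 2 without either CTR or either anti-PD-1 replicate, and 15 without OAT-1746 replicate 1. Psme2, a subunit of the PA28 activator, had 266 and 264 CPM in CTR, 192 and 64.9 in OAT-1746, 287 and 331 in anti-PD-1, and 239, 491 and 435 in COMB. Its log2 fold change between COMB and OAT-1746 was 1.60 (edgeR adjusted p = 0.0433), and 1.03 (edgeR adjusted p = 0.186) without OAT-1746 replicate 2. That of its partner Psme1 was 0.93 (edgeR adjusted p = 0.0711), and 0.50 without that library, and that of Psmb4 was 1.24 (edgeR adjusted p = 0.0275). Psme2 was no longer called in the same 7 fits as the constitutive subunits, though at 1.60 or 1.61 without a CTR or anti-PD-1 replicate, and Psmb4 without OAT-1746 replicate 2 (edgeR adjusted p = 0.158), COMB replicate 2 or COMB replicate 3. These fits were chosen after seeing the data.

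The ratio of immunoproteasome to constitutive subunit, a comparison of levels per kilobase with no test, overlapped between groups for Psmb8 over Psmb5. For Psmb8 over Psmb5 the mean log2 ratio was 1.82 ± 0.14 in CTR (SD, n = 2), 1.89 ± 0.13 in OAT-1746 (n = 2), 1.88 ± 0.02 in anti-PD-1 (n = 2) and 2.01 ± 0.15 in COMB (n = 3). For Psmb10 over Psmb7 it was 2.35 ± 0.09, 1.97 ± 0.25, 2.32 ± 0.03 and 2.23 ± 0.25 in the same order, with the lowest library, OAT-1746 replicate 2, at 1.80. Both OAT-1746 libraries lay below every CTR and anti-PD-1 library, while COMB overlapped with each of the other groups. For Psmb9 over Psmb6 the CTR mean was -0.55, that of OAT-1746 -0.36 ± 0.05, that of anti-PD-1 -0.33 ± 0.17 and that of COMB -0.30 ± 0.18, with both CTR libraries below every other library. Its sign depends on the length used, at 0.49 in CTR per kilobase of coding sequence, so the level of 1 subunit above its partner is not settled by these counts, while differences between libraries do not depend on length.

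**Figure D3:**
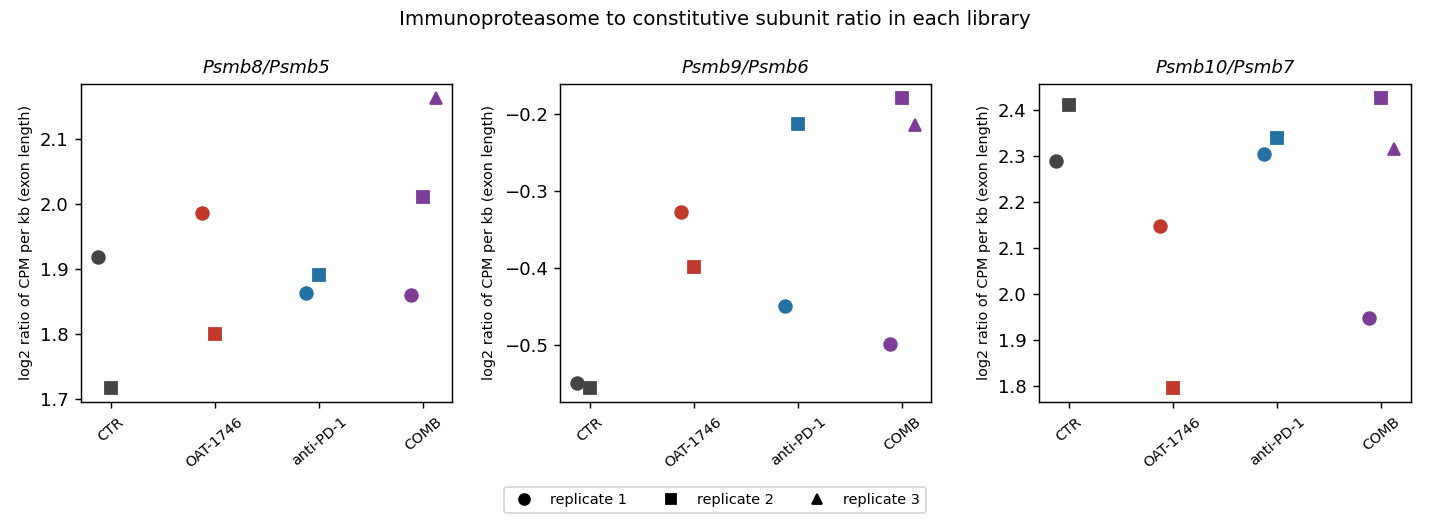
Log2 ratio of CPM per kilobase of exon of each immunoproteasome subunit over the constitutive subunit it replaces, in each library; point shapes give the replicate and each panel has its own vertical range. The Psmb10 over Psmb7 ratio is lowest in OAT-1746 replicate 2, at 1.80.

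Other class I chains and genes of the loading machinery were not called in OAT-1746 against CTR by edgeR. Of 21 other class I chain genes 13 could be tested, 10 of them lower in OAT-1746 than in CTR with a median of -0.25. edgeR and DESeq2 called 0 of the 13, beside 7.37% of all tested genes called as lower by DESeq2. At an unadjusted p under 0.05, 1 of 13 was lower, beside 16.2% of all tested genes. It was H2-Q7 (-0.76, edgeR adjusted p = 0.116, and -0.49 without OAT-1746 replicate 2). The log2 fold changes of the 13 ranged from -1.33 to 0.34. edgeR called 1 of the 13 as higher in COMB than in OAT-1746 and DESeq2 called 4, with 6 at an unadjusted p under 0.05, beside 6.84%, 13.2% and 18.3% of all tested genes. That count was 3 without OAT-1746 replicate 1, 5 without COMB replicate 1, and 0 without OAT-1746 replicate 2, either CTR replicate, either anti-PD-1 replicate, COMB replicate 2 or COMB replicate 3. H2-T23, the ligand of the CD94 and NKG2 receptors and the most abundant of them per kilobase, had 735 and 774 CPM in CTR, 658 and 354 in OAT-1746, 792 and 899 in anti-PD-1, and 658, 1133 and 1042 in COMB. Cd1d1, which presents lipids, had a log2 fold change of 1.06 between COMB and CTR (edgeR adjusted p = 0.673), and H2-T24 one of 0.63 between anti-PD-1 and CTR (edgeR adjusted p = 0.951). Of 15 genes of peptide trimming and loading, 13 were lower in OAT-1746, with 0 called by edgeR and 1 by DESeq2, beside 7.37% of all tested genes called as lower by DESeq2. At an unadjusted p under 0.05 there were 2, beside 16.2% of all tested genes as lower. They were Nrdc (-0.84, edgeR adjusted p = 0.0922) and Thop1 (-0.71, edgeR adjusted p = 0.0994). The chaperone gene Calr was at -0.28 and Ganab at -0.35. The fit without OAT-1746 replicate 2 gave -0.54 for Nrdc, -0.38 for Thop1, -0.11 for Calr and -0.24 for Ganab. Of these 15, edgeR called 0 as higher in COMB than in OAT-1746, DESeq2 3, and 4 had an unadjusted p under 0.05. Among all tested genes the shares were 6.84%, 13.2% and 18.3%.

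Regulators of class I transcription did not share 1 direction. Of 21 tested, 8 were lower and 13 higher in OAT-1746 than in CTR, with 0 called by edgeR, 2 by DESeq2 and 2 at an unadjusted p under 0.05. Of all 12538 tested genes, DESeq2 called 1972 in that comparison, and 4049 had an unadjusted p under 0.05. Irf1 had a log2 fold change of 0.27 (edgeR adjusted p = 0.496), and 0.44 without OAT-1746 replicate 2. Irf7, the most abundant per kilobase, had -0.66, and 0.20 without that library. Nfya, a subunit of the factor that binds the Y box, was at 0.81 (edgeR adjusted p = 0.0695), or 0.54 without OAT-1746 replicate 2. It was called as lower in COMB than in OAT-1746 (-0.89, edgeR adjusted p = 0.0275), beside 1121 of all 12538 tested genes. That call was lost without OAT-1746 replicate 2 (-0.58, edgeR adjusted p = 0.182), CTR replicate 1 (-0.87), COMB replicate 2 (-0.79) or COMB replicate 3 (-0.84). It was the only call among the 21 in that comparison, beside 3 higher and 5 lower without OAT-1746 replicate 1 and 3 lower without COMB replicate 1. Rfxap was at 0.63 between anti-PD-1 and CTR (edgeR adjusted p = 0.951). Ciita, the class II transactivator, had 223 and 93.5 CPM in CTR, 73.5 and 52.8 in OAT-1746, 114 and 188 in anti-PD-1, and 100.2, 127 and 162 in COMB.

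Interferon gamma mRNA was near the detection limit. Ifng had 4 and 3 counts in CTR, 1 and 1 in OAT-1746, 12 and 4 in anti-PD-1, and 6, 12 and 10 in COMB, and no fold change is given at this depth. Of 11 tested genes of interferon ligands and receptor signaling, 9 had a negative fold change in OAT-1746 against CTR. edgeR called 0 of the 11, DESeq2 called 1, and 2 had an unadjusted p under 0.05. Of all 12538 tested genes, DESeq2 called 1972 there, and 4049 had an unadjusted p under 0.05. The 2 were the receptor genes Ifnar1 (-0.63, edgeR adjusted p = 0.0735) and Ifngr1 (0.53, edgeR adjusted p = 0.146), at -0.44 and 0.39 without OAT-1746 replicate 2. Socs1, an inhibitor of this signaling, had 1.08 between anti-PD-1 and CTR (edgeR adjusted p = 0.951), and Socs3 was the most abundant of the list per kilobase. edgeR called Ifng alone of the 11 between COMB and OAT-1746, beside 6.84% of all tested genes called as higher. The number of calls was 3 without OAT-1746 replicate 1, 2 without COMB replicate 1 and 0 without any 1 of the other libraries.

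Other interferon-inducible genes were not called by edgeR. All 22 had a negative fold change in OAT-1746 against CTR, with a median of -0.69 and 0 called by edgeR. DESeq2 called 0 and 0 had an unadjusted p under 0.05, beside 7.37% and 16.2% of all tested genes as lower. Their summed level was 5303 and 4690 CPM in CTR, 4826 and 1351 in OAT-1746, 6190 and 6866 in anti-PD-1, and 3866, 5902 and 6174 in COMB. Only OAT-1746 replicate 2 was far below the other libraries, and without it 11 of the 22 had a negative fold change. Isg15 had 253 CPM in OAT-1746 replicate 1 and 35.2 in replicate 2. Between COMB and OAT-1746, 20 of the 22 had a positive fold change, with a median of 0.58. Of the 22, edgeR called 0 as higher, DESeq2 2, and 2 had an unadjusted p under 0.05. Among all tested genes the shares were 6.84%, 13.2% and 18.3%. Without OAT-1746 replicate 2, 11 of 22 had a positive fold change, with a median of -0.024. Between anti-PD-1 and CTR, Igtp was at 0.89 and Ifit3 at 1.09, each with an edgeR adjusted p of 0.951, and Cxcl10 was at -0.91 between OAT-1746 and CTR (edgeR adjusted p = 0.180), or -0.27 without OAT-1746 replicate 2.

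Class II genes, which show peptides to CD4 T cells, and cell type markers also differed between libraries, not always in the pattern of the class I genes. Their part in the result was not tested. All 8 class II genes had a negative fold change in OAT-1746 against CTR, with a median of -1.32, 0 called by edgeR, 6 by DESeq2 and 7 at an unadjusted p under 0.05, beside 7.37% and 16.2% of all tested genes as lower. H2-Ab1 had 8999 and 5366 CPM in CTR, 2845 and 1900 in OAT-1746, 3793 and 5361 in anti-PD-1, and 3944, 8648 and 8045 in COMB. H2-Eb1 and H2-Aa were at -1.54 and -1.50 against CTR, and Ctss, the most abundant per kilobase, at -0.36. Between COMB and OAT-1746 edgeR called 6 of the 8 as higher, beside 6.84% of all tested genes, and 0 without OAT-1746 replicate 2, COMB replicate 2 or COMB replicate 3, 3 without either CTR replicate and 2 without either anti-PD-1 replicate. H2-Aa was at 1.58 (edgeR adjusted p = 0.0302) and H2-Eb1 at 1.49 (edgeR adjusted p = 0.0308). Without OAT-1746 replicate 2, H2-Eb1 was still at 1.44 (edgeR adjusted p = 0.168), and all 8 genes kept their sign in both comparisons, with a median of -1.10 against CTR.

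The 7 markers of monocytes and macrophages, led by Tgfbi, all had a negative fold change in OAT-1746 against CTR, with 0 called by edgeR, 2 by DESeq2 and 3 at an unadjusted p under 0.05, beside the same shares. Their summed level was 7383 and 6841 CPM in CTR, 5230 and 665 in OAT-1746, 6133 and 7772 in anti-PD-1, and 4967, 7705 and 7932 in COMB, much of it from Tgfbi, at 5703 CPM in CTR replicate 1. Without OAT-1746 replicate 2 the common sign was gone, with 4 of these 7 positive against CTR. With all 9 libraries, the 7 microglia markers had a positive fold change in OAT-1746 against CTR, with 0 called by edgeR, 5 by DESeq2 and 7 at an unadjusted p under 0.05, beside 1048 and 2013 of all 12538 tested genes higher by DESeq2 and at that p. All 7 stayed positive without OAT-1746 replicate 2, with a median of 0.75. Their sum was 11650 and 18140 CPM in CTR, 23720 and 29920 in OAT-1746, 16890 and 13670 in anti-PD-1, and 20820, 15760 and 14770 in COMB. Between COMB and OAT-1746 edgeR called 0 of the 7 monocyte and macrophage markers. Of these, 1 was higher at an unadjusted p under 0.05 and 1 by DESeq2, beside 18.3% and 13.2% of all tested genes. In that comparison edgeR called 2 of the 7 microglia markers as lower, beside 1121 of all 12538 tested genes. The 2 calls became 0 without OAT-1746 replicate 2, CTR replicate 1, either anti-PD-1 replicate, COMB replicate 2 or COMB replicate 3, 4 without OAT-1746 replicate 1 and 5 without COMB replicate 1. No marker of these 2 cell types was at 0 in any library, and their part in the class I values was not tested.

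**Figure D4:**
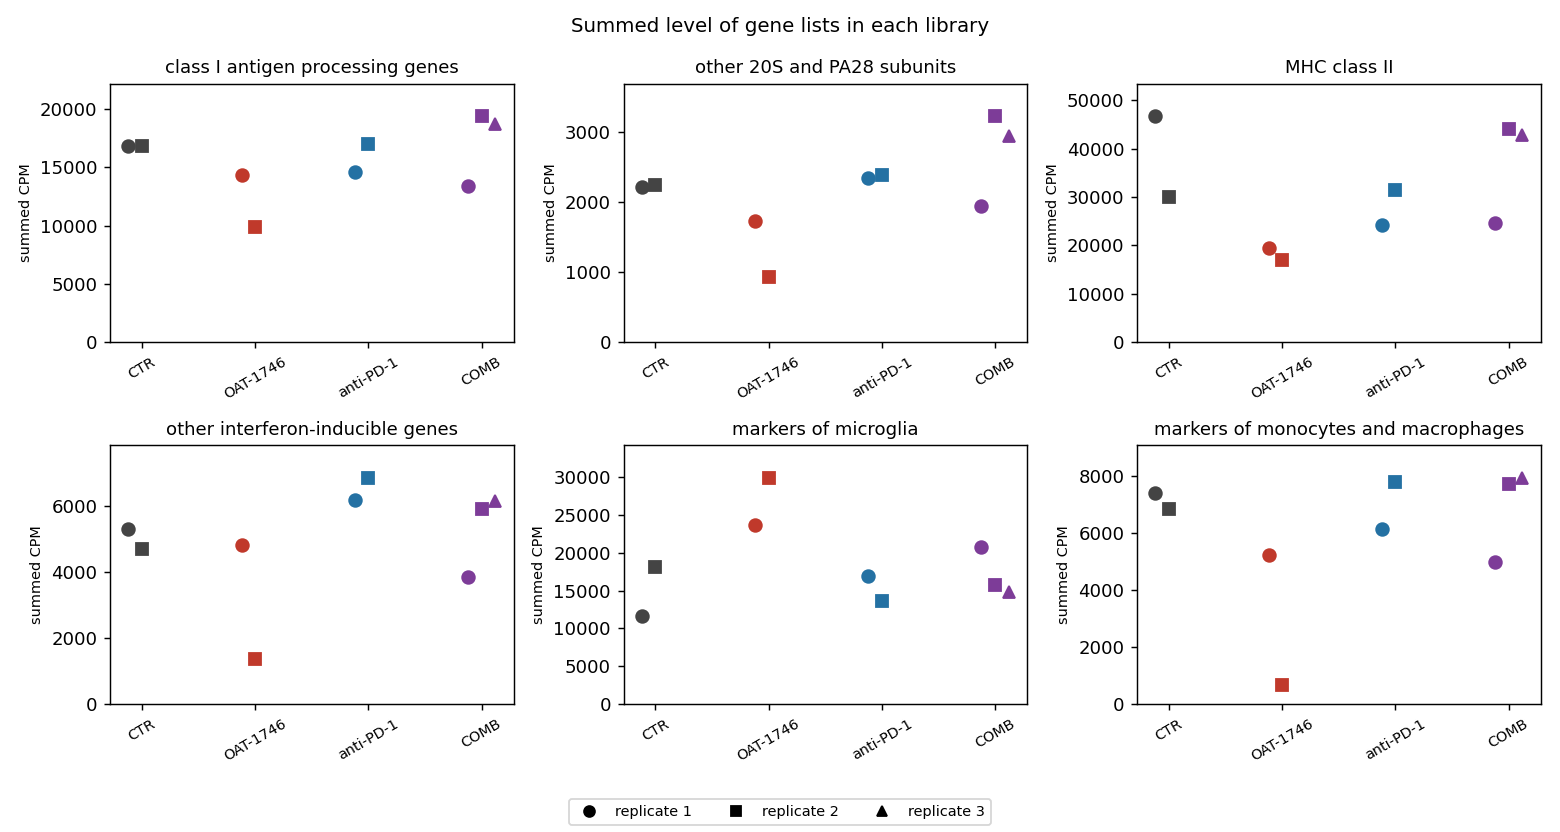
Summed TMM-normalised CPM of 6 gene lists in each library; point shapes give the replicate. OAT-1746 replicate 2 has the lowest sum of monocyte and macrophage markers, at 665 CPM, and the highest sum of microglia markers, at 29920 CPM.

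The genes most like the 10 in pattern were sought among all other tested genes. By Pearson's r over the 9 libraries with the mean of the 10 genes' standardised log2 CPM, the 8 highest were Lrrc8c (0.990), Nampt (0.987), Stx4a (0.987), Chmp5 (0.986), Psma4 (0.985), Klhdc4 (0.985), Arpc1a (0.984) and Kars (0.984). Without OAT-1746 replicate 2 they ranged from 0.936 to 0.974. Among the 10 themselves, r with that mean was highest for Tap1 (0.985) and lowest for B2m (0.848) and Nlrc5 (0.533), and that of Nlrc5 was 0.259 without OAT-1746 replicate 2. These values describe the libraries, which share treatments, and carry no p-value.

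The heavy chain transcripts shared more of their sequence with other genes than those of the rest did, which can make their counts less certain. Of the 50-base stretches in H2-K1 transcripts 9.63% also occurred in transcripts of other genes, most often H2-Q10, and of those in H2-D1 12.8%, most often H2-Q1. Of the 100-base stretches 0.957% and 3.59% did. For B2m, Nlrc5, Psmb9 and Psmb10 none did. Tapbp overlaps Zbtb22 on the same strand, whereas B2m lies across Patl2, and Psmb9 across the start of Tap1, on opposite strands, which the stranded counting keeps apart.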

How the data were processed

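CD11b+ RNA libraries were grouped by their titles. For 1 anti-PD-1 library, replicate 2, the label for treatment gives a different target than PD-1, and its title and column name decided the group. The authors deposited raw counts of read pairs per gene, made by trimming with Trimmomatic, aligning to mm10 with STAR, marking duplicates with Picard and counting with HTSeq, reverse stranded, at a mapping quality of at least 10. No filter or normalization was applied to them.

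Identifiers were matched to GENCODE M21 of GRCm38 (53620 of 53801). Protein-coding genes (21890) were kept, and filterByExpr (minimum count 10, 4 groups) left 12538. edgeR 4.0.16 in R 4.3.3 fitted TMM-normalised counts of all 9 libraries by quasi-likelihood, with a mean for each group and no block. The common biological coefficient of variation was 0.214. Calls were made where the p adjusted over all tested genes by Benjamini-Hochberg was under 0.05. With 2 libraries in most groups, calls rest on the spread shared between groups. The study names biological replicates, and nothing ties replicate numbers of different groups to each other.

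Alternatives were DESeq2 1.42.0, its size factors, scaling to library size, testing genes with any count, testing only genes that reach 10 counts everywhere, testing genes of every type, the replicate block, robust estimation, limma 3.58.1 voom with quality weights, coding length for the ratios, and leaving out each library. DESeq2 was first run with its independent filtering tuned to 0.05, then set to its default level, as planned, after counts had been seen. Both are given, the tuned one as an alternative chosen after seeing the data, as were all alternatives for genes and lists other than the 10. The 10 genes and all lists were chosen with earlier results of these data known. Genes named are the 10, the constitutive subunits, Psme1, Psme2, Irf1, Ifng, Ciita, in each other pathway list the most abundant per kilobase and the 3 with the smallest unadjusted p against CTR, the most abundant gene of most marker lists, and the 8 most alike. For neurons, 1 gene of that list is left unreported. Steps were tested on simulated data. Plots used Python 3.11.15 with matplotlib 3.10.9.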

Additional observations from a re-analysis of the deposited data

How the results depend on the processing

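Across the alternatives, 1222 of 1330 values of the 10 genes kept their direction and their side of the threshold, 47 changed sign, 53 passed the threshold anew and 8, all of Psmb8 between COMB and OAT-1746, no longer passed it. The causes were not tested. Genes called between OAT-1746 and CTR (0) became 1972 with DESeq2, 1996 with DESeq2 filtering tuned to 0.05 and 587 with no low-count filter; the tuned filter called 1 of the 10 genes. For anti-PD-1 against CTR (0) both DESeq2 settings gave 14. For COMB against CTR (0) both gave 35, and no filter and limma voom gave 2 each. For COMB against anti-PD-1 (0) both gave 47, no filter 2 and voom 35. For COMB against OAT-1746 (1979) both gave 3062. The interaction (45) gave 1053 with DESeq2, 1025 with the tuned filter, 24 with library size only, 146 with no filter, 18 with all genes and 428 with voom. The average antibody effect (1) gave 320, 334 with the tuned filter, 9 with no filter and 4 with voom. Of the 10 genes, the number called between COMB and OAT-1746 (1) became 7 with both DESeq2 settings and voom, 2 with DESeq2 size factors, 3 with library size only and with at least 10 counts in every library, and 4 with no filter.

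The replicate block (replicate numbers the labels do not pair, with deviations of same-numbered libraries correlated from -0.35 to 0.10) left 2 genes called between COMB and OAT-1746 and 0 of the 10, and 0 genes in the interaction and in the average antibody effect. H2-K1 between COMB and CTR was -0.007 and Tap2 between COMB and anti-PD-1 was -0.084 with it. Psmb8 between COMB and OAT-1746 was 1.21 (edgeR adjusted p = 0.230), and the constitutive subunits, the other proteasome genes and the class II genes had 0 calls. The median of the 10 between COMB and CTR was 0.033 with this replicate block.

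Outside the 10 genes, between COMB and OAT-1746, Psme2 was no longer called with robust estimation (edgeR adjusted p = 0.0504) and Psmb6 with all genes (edgeR adjusted p = 0.0504). The glioma marker call was lost with voom, the higher astrocyte call with library size only, and 1 of 2 neuron calls with at least 10 counts in every library, a filter that removed Ifng and Klrc2 from the test.

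Signs near 0 turned. H2-D1 between anti-PD-1 and CTR was 0.016 with library size only, against -0.02 in the main fit. With library size only, the median of all genes was 0.059 between anti-PD-1 and CTR and -0.109 in the interaction. Tapbp was 0.043 with voom between COMB and CTR. Between COMB and anti-PD-1 it was 0.006 with both DESeq2 settings and with its size factors, 0.008 with no filter, 0.013 with at least 10 counts in every library, 0.005 with all genes and 0.085 with voom. Nlrc5 was 0.092 between COMB and OAT-1746 with voom. B2m in the average antibody effect was 0.001 with no filter and 0.042 with voom. Per kilobase of coding sequence, the CTR log2 ratios were 3.67 for Psmb8 over Psmb5, 0.49 for Psmb9 over Psmb6 and 1.37 for Psmb10 over Psmb7.

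Leaving out each library gave these ranges of counts and log2 fold changes. For OAT-1746 versus CTR, genes called 0 to 3617, calls among the 10 0 to 5, the median of the 10 -0.86 to -0.24, Nlrc5 -0.51 to 0.12. For anti-PD-1 versus CTR, the median of the 10 -0.05 to 0.16, H2-K1 -0.37 to 0.012, H2-D1 -0.15 to 0.10, Tap1 -0.048 to 0.29, Tap2 -0.052 to 0.33, Tapbp -0.14 to 0.047, Nlrc5 -0.047 to 0.64. For COMB versus CTR, H2-K1 -0.012 to 0.23, H2-D1 -0.031 to 0.20, Tapbp -0.13 to 0.04. For COMB versus anti-PD-1, genes called 0 to 52, the median of the 10 -0.009 to 0.33, H2-D1 -0.031 to 0.23, B2m -0.024 to 0.20, Tap2 -0.12 to 0.26, Tapbp -0.10 to 0.11, Psmb10 -0.027 to 0.41. For COMB versus OAT-1746, genes called 5 to 4033, calls among the 10 0 to 8, B2m -0.068 to 0.48, Nlrc5 -0.36 to 0.24. For the interaction, genes called 0 to 2734, calls among the 10 0 to 4, the median of the 10 0.41 to 1.01. For the average antibody effect, genes called 0 to 1478, calls among the 10 0 to 4, B2m -0.13 to 0.15, Nlrc5 -0.071 to 0.29. A lone library of a group was assumed to vary like the others. With 2 libraries in most groups, small differences are not detectable.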

Other observations

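Genes of receptors that read class I molecules were low in these cells apart from Pirb, an inhibitory receptor of myeloid cells, which had 234 and 236 CPM in CTR, 179 and 54.4 in OAT-1746, 189 and 215 in anti-PD-1, and 152, 341 and 340 in COMB. Of 12 such genes 11 were tested, and edgeR called 0 of them in each of the 3 comparisons against CTR, where the numbers at an unadjusted p under 0.05 were 0 for OAT-1746, 5 for anti-PD-1 and 3 for COMB, and those of DESeq2 were 0, 1 and 1. Of all 12538 tested genes, 4049, 642 and 825 had an unadjusted p under 0.05 in the same order, and DESeq2 called 1972, 14 and 35. All 11 were positive between COMB and OAT-1746. There edgeR called 1 (Klrc2), beside 6.84% of all tested genes as higher. DESeq2 called 4, beside 13.2%, and 4 had an unadjusted p under 0.05, beside 18.3%. The edgeR count was 4 without OAT-1746 replicate 1, and 0 without OAT-1746 replicate 2, either CTR replicate, COMB replicate 2 or COMB replicate 3. Klra8, a receptor of NK cells, had 0.541 and 0.412 CPM in CTR, 0.582 and 0.629 in OAT-1746, 4.88 and 2.03 in anti-PD-1, and 0.593, 2.11 and 1.70 in COMB. Klra9 had 0.841 and 0.294 CPM in CTR, 0.989 and 0.401 in OAT-1746, 4.18 and 2.37 in anti-PD-1, and 1.26, 2.11 and 1.84 in COMB. Klrc2 was listed at 0 counts in both CTR libraries.

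The 7 NK cell markers, led by Gzma, summed to 33.3 and 29.9 CPM in CTR, 48.8 and 14.8 in OAT-1746, 203 and 104 in anti-PD-1, and 42.6, 91.5 and 99.6 in COMB. Between anti-PD-1 and CTR edgeR called 0 of them, DESeq2 3, and all 7 reached an unadjusted p under 0.05 as higher, beside 399 of 12538 tested genes, while DESeq2 called 14 of these. The T cell markers summed to at most 22.4 CPM and were led by Cd4, which myeloid cells also express, and Cd3e and Trac had too few counts to be tested. The B cell markers were led by Cd79b at a sum of at most 25.4 CPM, with Pax5 untested.

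Markers of further cell types were summed in each library. Those of border-associated macrophages, most abundant in Mrc1 by CPM, ranged from 442 to 610 CPM. Dendritic cell markers, most abundant in Ccr7 by CPM, ranged up to 148 CPM, and neutrophil markers, most abundant in S100a9, from 58.1 to 163 CPM. Markers of glioma cells, most abundant in Nes by CPM, were at 9.77 to 23.5 CPM with Pdgfra untested. Markers of oligodendrocytes, led by Mbp by CPM, ranged from 155 to 292 CPM, those of astrocytes, led by Slc1a3, from 61.0 CPM in CTR replicate 1 to 133 and 198.5 CPM in OAT-1746 replicate 1 and 2, and those of endothelial cells, led by Pecam1 by CPM, from 86.1 to 136 CPM. The 4 neuron markers summed to at most 9.90 CPM. Erythroid markers, led by Hbb-bs, reached 30.7 CPM in OAT-1746 replicate 2. edgeR called 2 of 4 neuron markers as lower in COMB than in OAT-1746, 1 of 4 astrocyte markers as higher and 1 as lower, and 1 of 5 tested glioma markers as higher, as did DESeq2. Of all 12538 tested genes edgeR called 858 as higher and 1121 as lower there. All these counts were 0 without OAT-1746 replicate 2, COMB replicate 2 or COMB replicate 3. Those of astrocytes and glioma cells were also 0 without either CTR or either anti-PD-1 replicate, and that of glioma cells without COMB replicate 1. For astrocytes the higher call was lost without OAT-1746 replicate 1 and the lower call without COMB replicate 1. The part of these cells in the class I values was not tested.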
